A study of Mus musculus with 6 samples.

Results

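Transcripts of 8 genes were followed in mouse hearts: Mlx with its binding partners Mlxip and Mlxipl, and the alpha-arrestin family members Txnip, Arrdc1, Arrdc2, Arrdc3 and Arrdc4. The genes were taken by symbol from a table of 25901 rows, each symbol matched 1 row, and all 8 rows lay among the 10201 tested, those that reached an FPKM of 1 in 3 or more hearts. FPKM, fragments per kilobase of transcript and per unit of mapped fragments, is scaled by length, so levels can be set side by side between genes. The set was chosen by the FPKM of the same hearts, with the differences between the genotypes known. Differences between genotypes are therefore given for the 8 genes as descriptions, without a p.

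There were 3 wild-type hearts (WT2368, WT2379 and WT2378) and 3 hearts labelled SRAKO (SRAKO2365, SRAKO2371 and SRAKO2372). All of them, controls included, had received isoproterenol, an agonist of beta-adrenergic receptors, for 4 weeks, and untreated hearts were not analysed here. SRA is the steroid receptor RNA activator made from the gene Sra1, and neither the allele nor the strain, sex, age or litter of the animals is given in the labels. The samples were whole hearts, so a smaller number of cells of a type and less RNA per cell cannot be told apart.

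MLX is a basic helix-loop-helix leucine zipper protein that binds DNA as a heterodimer with MondoA, encoded by Mlxip, or with ChREBP, encoded by Mlxipl. These dimers sense glucose 6-phosphate and act on carbohydrate response elements, which hold a pair of E-box-like sites. Txnip and Arrdc4 are their best known targets: TXNIP binds and inhibits thioredoxin, and both proteins limit glucose uptake. The other alpha-arrestins are adaptors that bring NEDD4-family ubiquitin ligases to membrane proteins, among them beta-adrenergic receptors.

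The sequences before the annotated starts are shown because the known link between these genes is a DNA site. They come from RefSeq on GRCm38.p6, read 5′ to 3′ on the strand of the gene, and each run is the 250 bases before a start. All 8 genes matched, with 11 windows in all. Capitals mark matches to the E-box CACGTG or to a pair of CACGNG sites with 5 bases between them.
Txnip, chr3:96557707-96557956, plus strand: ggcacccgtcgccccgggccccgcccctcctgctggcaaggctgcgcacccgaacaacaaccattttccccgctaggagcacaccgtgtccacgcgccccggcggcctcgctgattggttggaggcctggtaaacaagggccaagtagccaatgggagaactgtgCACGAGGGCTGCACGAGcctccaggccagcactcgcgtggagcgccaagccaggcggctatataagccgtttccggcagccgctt
Arrdc4, chr7:68749239-68749488, minus strand: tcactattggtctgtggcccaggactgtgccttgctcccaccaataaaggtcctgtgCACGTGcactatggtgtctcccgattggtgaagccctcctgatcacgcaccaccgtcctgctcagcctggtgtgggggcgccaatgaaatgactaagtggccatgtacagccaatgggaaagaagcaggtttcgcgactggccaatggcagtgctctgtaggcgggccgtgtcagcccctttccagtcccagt
Mlx, chr11:101087040-101087289, plus strand: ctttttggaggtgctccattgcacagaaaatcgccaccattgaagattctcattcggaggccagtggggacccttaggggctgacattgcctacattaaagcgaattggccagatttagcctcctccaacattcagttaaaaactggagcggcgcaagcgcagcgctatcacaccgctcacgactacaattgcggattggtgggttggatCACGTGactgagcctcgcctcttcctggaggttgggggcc
Mlxipl, upstream start, chr5:135089640-135089889, plus strand: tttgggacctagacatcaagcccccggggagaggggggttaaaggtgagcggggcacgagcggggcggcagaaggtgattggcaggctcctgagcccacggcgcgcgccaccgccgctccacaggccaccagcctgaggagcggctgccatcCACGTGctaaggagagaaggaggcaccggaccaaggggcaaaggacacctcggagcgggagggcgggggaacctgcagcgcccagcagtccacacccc
Arrdc2, chr8:70839721-70839970, minus strand: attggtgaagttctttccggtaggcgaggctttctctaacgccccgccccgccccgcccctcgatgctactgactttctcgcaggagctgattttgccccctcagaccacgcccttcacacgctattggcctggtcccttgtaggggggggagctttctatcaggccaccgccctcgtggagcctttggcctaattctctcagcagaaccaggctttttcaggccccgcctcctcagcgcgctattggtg

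Windows from 250 bases before to 50 after each start were searched on both strands, and positions count back from the annotated start. The spaced pair was found before Txnip as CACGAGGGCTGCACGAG, its first base at -85, and in 16 of 32851 windows of all genes (0.0487%). The single E-box CACGTG, which can itself form part of a spaced pair but does not in Txnip, stood at -193 before Arrdc4, at -40 before Mlx and at -98 before the upstream of the 2 starts of Mlxipl, which lie 17001 bases apart. It was present in 7.15% of all windows. Neither motif was found in the windows of Arrdc1, Arrdc2, Arrdc3 and Mlxip or of the downstream start of Mlxipl, of which only that of Arrdc2 is shown.

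Txnip also held a forkhead site, GTAAACA, at -121 (3.65% of all windows). A palindrome of the kind bound by steroid receptors, GNACA and TGTNC with 3 bases between them, began at -172 in the same window (0.475%). CCAAT boxes, present in 37.4% of windows, were found in 7 of the 8 genes and most often before Arrdc4, which had 6 of them counting both strands. The cAMP response element TGACGTCA was found in none of the 8 genes and in 1.79% of windows. These matches describe letters only, and binding was not measured.

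Sra1, the gene named in the SRAKO label, had an FPKM of 4.40, 6.31 and 4.23 in WT2368, WT2379 and WT2378 and of 1.96, 1.78 and 2.05 in SRAKO2365, SRAKO2371 and SRAKO2372. Its SRAKO hearts all lay below its WT hearts (exact two-sided permutation test, p = 0.1, the floor of a design of this size). Ventricular muscle markers such as Myl2 were abundant in every heart, the sum of 10 such markers running from 11650 to 14420 FPKM in WT and from 12720 to 12840 in SRAKO. Lymphocyte markers were close to absent, all 8 of them under an FPKM of 1 in each heart. A pair of predicted genes that overlap ribosomal RNA repeats, named after their values were seen, was highest in WT2368: Gm26917 stood at 17.5 there and Gm42418 at 10.3. SRAKO2371 came next with 6.70 and 8.28, and the other hearts held 1.62 to 2.92 and 4.95 to 6.95.

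**Figure D1:**
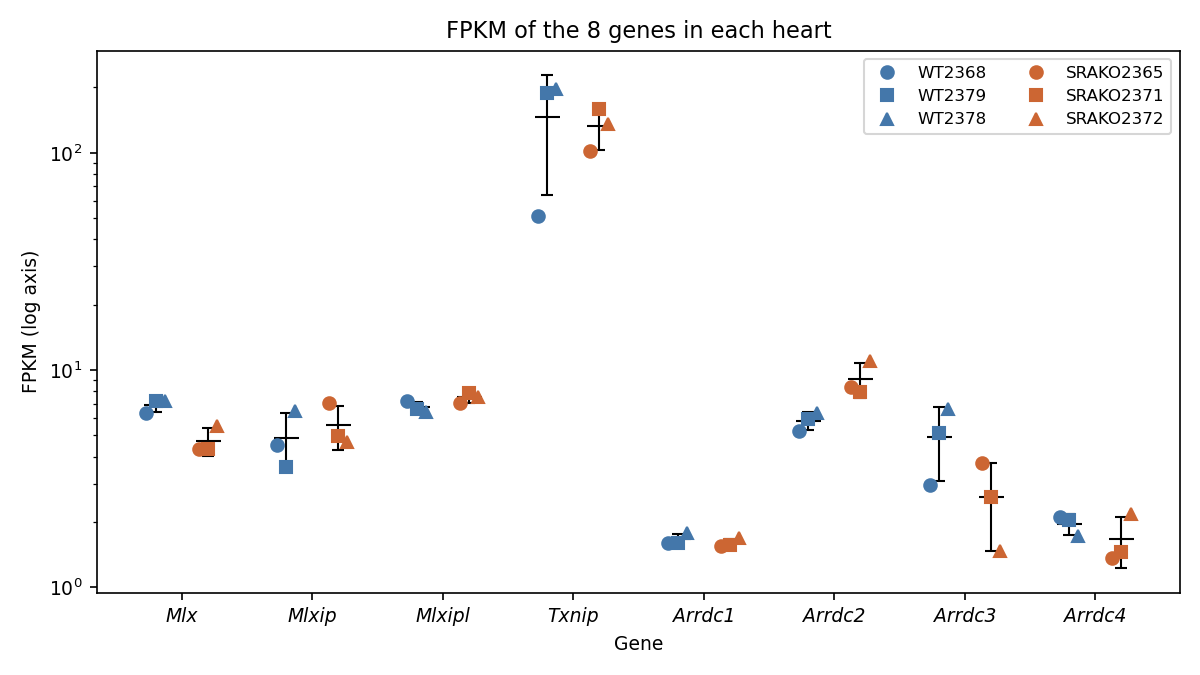
FPKM of each gene (log axis) in the 6 hearts, WT in blue and SRAKO in orange, with 1 symbol per heart; horizontal ticks and bars are means and SD over 3 hearts. Txnip lies far above the other genes, the Mlx and Arrdc2 points of the genotypes do not overlap, and WT2368 is the lowest Txnip point.

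Mlx, the shared dimer partner, was lower in the SRAKO hearts. Its locus on the plus strand of chromosome 11 spans 101087277 to 101092207 of GRCm38, and its row joined 7 annotated transcripts. FPKM was 6.37, 7.18 and 7.18 in WT2368, WT2379 and WT2378, and 4.33, 4.33 and 5.53 in SRAKO2365, SRAKO2371 and SRAKO2372. The ranges did not overlap, and SRAKO2372 was the SRAKO heart nearest to WT. Means were 6.91 ± 0.468 and 4.73 ± 0.690 (SD, n = 3 each), 68.4% of WT. After a log2(FPKM + 1) transformation the SRAKO mean minus the WT mean was -0.47 (SE 0.11), ranging from -0.57 to -0.42 when single hearts were left out.

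The 3′ end of Mlx overlaps that of Psmc3ip on the opposite strand, and whether the libraries kept strand is not given in the sources used here. Psmc3ip was low in all hearts, at 0.964 to 1.27 in WT and 0.720 to 1.13 in SRAKO. Coasy, which ends just upstream of Mlx, was at 4.08 to 5.09 in WT and 4.00 to 5.58 in SRAKO, ranges that overlapped.

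Mlxip and Mlxipl, the sensor partners of MLX, overlapped between genotypes. Mlxip, on chromosome 5 from 123394798 to 123457932, had 4.51, 3.59 and 6.49 FPKM in WT2368, WT2379 and WT2378 and 7.03, 4.99 and 4.69 in SRAKO2365, SRAKO2371 and SRAKO2372. It was the least even of the MLX group, with coefficients of variation of 30.5% in WT and 22.9% in SRAKO, and its log2 difference of 0.18 (SE 0.20) was smaller than its SE. That difference was 0.02 without WT2379 or without SRAKO2365 and 0.37 without WT2378.

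Mlxipl lies on the same chromosome from 135089890 to 135138382 and had 7.18, 6.59 and 6.43 FPKM in WT2368, WT2379 and WT2378. The SRAKO hearts were at 7.07, 7.88 and 7.49 in the order SRAKO2365, SRAKO2371 and SRAKO2372, a log2 difference of 0.13 (SE 0.09). Only the SRAKO2365 and WT2368 values crossed between the groups. The row joined 10 annotated transcripts, so its starts could not be separated.

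The balance between Mlx and its partners did not overlap between the genotypes. Summed Mlxip and Mlxipl FPKM per FPKM of Mlx was 1.84, 1.42 and 1.80 in WT2368, WT2379 and WT2378 and 3.26, 2.97 and 2.20 in SRAKO2365, SRAKO2371 and SRAKO2372. Each SRAKO ratio exceeded each WT ratio, with means of 1.68 ± 0.232 and 2.81 ± 0.544 (SD, n = 3 each). The Mlx denominator is the value by which the set was chosen, so the ratio adds no separate support. Mlxipl per Mlx averaged 0.980 ± 0.128 over WT hearts and 1.60 ± 0.233 over SRAKO hearts. Mlxip per Mlx overlapped, at 0.500 to 0.904 in WT and 0.848 to 1.62 in SRAKO.

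**Figure D2:**
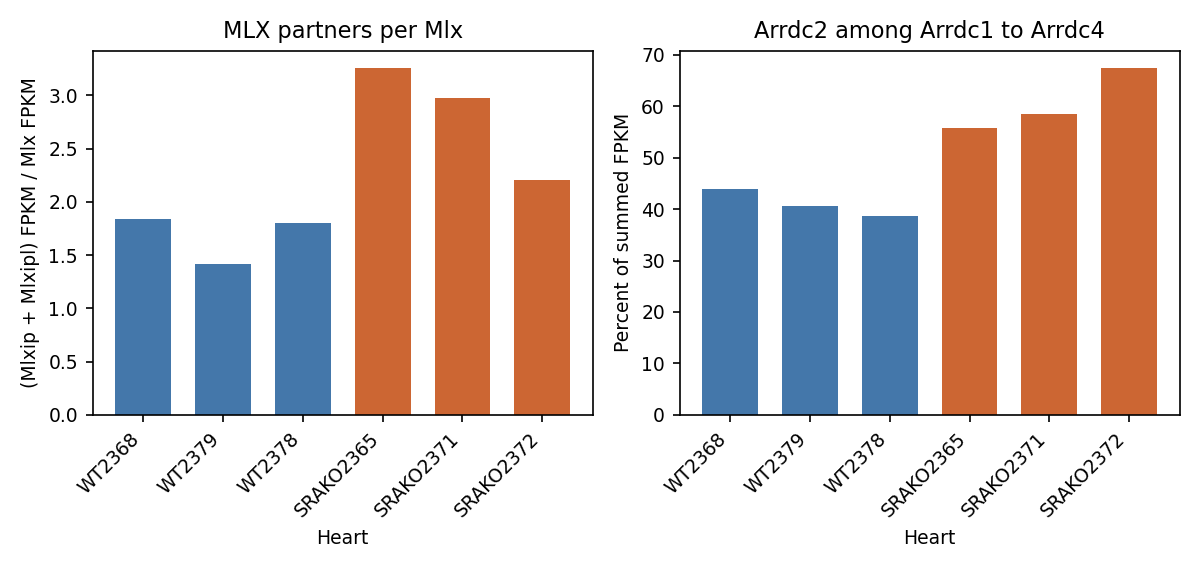
Left, summed FPKM of Mlxip and Mlxipl divided by the FPKM of Mlx; right, Arrdc2 as a percent of the summed FPKM of Arrdc1 to Arrdc4; 1 bar per heart, WT in blue and SRAKO in orange. All SRAKO bars are above all WT bars, at 2.20 to 3.26 against 1.42 to 1.84 on the left and at 55.8% to 67.4% against 38.6% to 43.9% on the right.

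Txnip, the thioredoxin inhibitor and founding alpha-arrestin, was by far the most abundant of the 8 genes. Its locus on the plus strand of chromosome 3 spans 96557957 to 96561883, and its mean FPKM of 139 stood at the 98.1st percentile of tested rows. FPKM was 51.5, 188 and 197 for WT2368, WT2379 and WT2378, against 102, 159 and 136 for SRAKO2365, SRAKO2371 and SRAKO2372. The lowest and the highest hearts were both WT, and the SRAKO hearts lay between them. Means were 146 ± 81.7 and 132 ± 28.7 (SD, n = 3 each), so the SRAKO mean was 90.8% of WT. The difference of the log2 means pointed the other way, at 0.06 (SE 0.48).

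The sign of the Txnip difference depended on single hearts. Without SRAKO2371 the log2 difference was -0.08. Without WT2368 it was -0.56, and the WT hearts left were both above every SRAKO heart. Without WT2379 or WT2378 it was 0.36 or 0.39. The SD within genotypes of log2(FPKM + 1) was 0.80 for Txnip, at the 99.1st percentile of tested rows. The rows most like Txnip over the 6 hearts (Pearson r on log2 values, 9305 named rows searched) were Tubgcp2 at 0.997, Fbxw8 at 0.997 and Cad at 0.996, and all of them were lowest in WT2368. As many as 207 rows exceeded an r of 0.95 with Txnip, against 4 to 34 for each of the other 7 genes.

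WT2368 was also the heart with the highest Gm26917 and Gm42418, and the part of ribosomal RNA carry-over in its Txnip value was not tested. The antisense gene Gm15441 covers the Txnip locus on the opposite strand and was at 0.0886 to 0.303 FPKM in WT and 0.161 to 0.490 in SRAKO, far below Txnip.

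**Figure D3:**
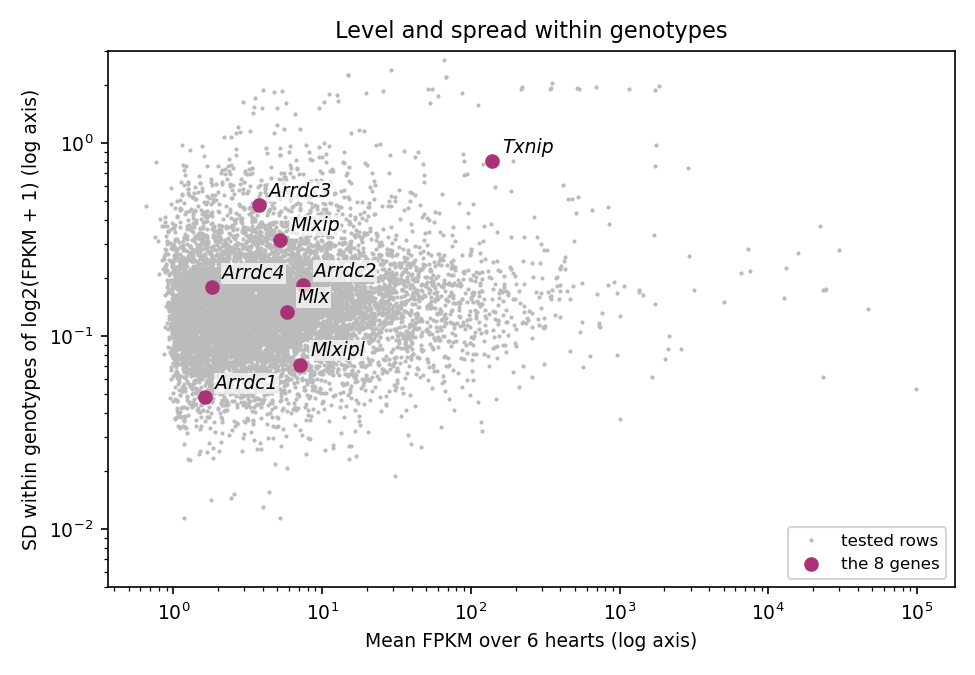
Mean FPKM over the 6 hearts against the SD within genotypes of log2(FPKM + 1), both on log axes; grey points are the 10201 tested rows and purple points the 8 genes. Txnip stands at 139 FPKM with an SD of 0.80. Arrdc1 and Mlxipl have the lowest SD of the 8 genes, 0.05 and 0.07, at the 2.59th and 9.53rd percentiles of tested rows.

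Arrdc2, an alpha-arrestin of cytoplasmic vesicles and the plasma membrane by the table's annotation, was higher in the SRAKO hearts. Its locus on the minus strand of chromosome 8 spans 70835129 to 70839720, with no other annotated gene over it. FPKM was 5.24, 5.98 and 6.35 in WT2368, WT2379 and WT2378 and 8.39, 7.90 and 11.0 in SRAKO2365, SRAKO2371 and SRAKO2372. Every SRAKO heart was above every WT heart, and SRAKO2372 was highest. Means were 5.85 ± 0.566 and 9.10 ± 1.68 (SD, n = 3 each), 156% of WT, for a log2 difference of 0.55 (SE 0.14). It ran from 0.42, without SRAKO2372, to 0.64, without SRAKO2371. Of the 9 transcripts in the row 2 were assembled by the authors' pipeline and the other 7 are annotated as Arrdc2.

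Among the 8 genes, the genotypes' ranges stayed apart for 2, Mlx and Arrdc2, in opposite directions. Over all tested rows the ranges stayed apart in 8.05%, with 4.28% higher and 3.76% lower in SRAKO. Since these genes were picked for that separation, the count is a description.

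Arrdc3, which binds beta-adrenergic receptors and marks them for ubiquitination, had the largest log2 difference of the 8 genes but overlapped. It lies on chromosome 13 from 80883384 to 80896042. WT2368, WT2379 and WT2378 were at 2.96, 5.14 and 6.61 FPKM, and SRAKO2365, SRAKO2371 and SRAKO2372 at 3.75, 2.60 and 1.47. WT2368 fell among the SRAKO hearts, below SRAKO2365. Means were 4.91 ± 1.84 and 2.61 ± 1.14 (SD, n = 3 each), 53.1% of WT, with a log2 difference of -0.71 (SE 0.29). It was -0.97 without WT2368 and -0.46 without SRAKO2372, so its size moved by over 1.5 times with SRAKO2372 while its sign held. Its SD within genotypes of 0.48 stood at the 96.8th percentile.

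The order of the WT hearts was the same for Txnip, Arrdc1, Arrdc2 and Arrdc3, lowest in WT2368 and highest in WT2378. For Arrdc1 the values in WT2368 and WT2379 were nearly equal. Among the SRAKO hearts it was not, since Txnip was highest in SRAKO2371, Arrdc3 in SRAKO2365, and Arrdc1 and Arrdc2 in SRAKO2372.

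Arrdc4, which shares with Txnip its known induction by MLX dimers, was low and overlapped. On chromosome 7 from 68736995 to 68749241, it had 2.12, 2.04 and 1.72 FPKM in WT2368, WT2379 and WT2378 and 1.37, 1.46 and 2.18 in SRAKO2365, SRAKO2371 and SRAKO2372. SRAKO2372 was the highest of all hearts while SRAKO2365 and SRAKO2371 were the lowest, and the log2 difference was -0.16 (SE 0.13). It was -0.29 without SRAKO2372, -0.11 without SRAKO2371 and -0.08 without SRAKO2365. Arrdc4 did not share the low value of Txnip in WT2368, where it was at 2.12.

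Arrdc1, which drives budding of small vesicles from the plasma membrane, differed little between hearts. It lies on chromosome 2 from 24925352 to 24935252 and ran from 1.60 to 1.78 FPKM in WT and from 1.54 to 1.68 in SRAKO. Its log2 difference was -0.04 (SE 0.08), between -0.06 and -0.0049 with single hearts left out, and its SD within genotypes of 0.05 stood at the 2.59th percentile. Arrdc5, the remaining ARRDC gene and outside the set, stayed at 0.200 to 0.494.

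The sums of the ARRDC transcripts overlapped, and their makeup did not. Arrdc1 to Arrdc4 together gave 11.9 to 16.5 FPKM in WT and 13.5 to 16.4 in SRAKO. Arrdc2 made up 43.9%, 40.5% and 38.6% of that sum in WT2368, WT2379 and WT2378 and 55.8%, 58.4% and 67.4% in SRAKO2365, SRAKO2371 and SRAKO2372. The shares did not overlap, with means of 41.0% ± 2.71 and 60.5% ± 6.09 (SD, n = 3 each), and they rest in part on the Arrdc2 value used to choose the set. With Txnip added, Txnip alone took 81.2% to 92.7% of the alpha-arrestin FPKM in WT and 87.1% to 92.2% in SRAKO.

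Ordered by mean FPKM per length in WT, Txnip at 146 was followed by Mlx at 6.91, Mlxipl at 6.73, Arrdc2 at 5.85, Arrdc3 at 4.91, Mlxip at 4.86, Arrdc4 at 1.96 and Arrdc1 at 1.66. Neighbours from Mlx down to Mlxip had overlapping values, except that every WT value of Arrdc2 was below every WT value of Mlxipl. In SRAKO the order was Txnip at 132, Arrdc2 at 9.10, Mlxipl at 7.48, Mlxip at 5.57, Mlx at 4.73, Arrdc3 at 2.61, Arrdc4 at 1.67 and Arrdc1 at 1.60. Values of neighbours overlapped there for Mlxip and Mlx, for Arrdc3 and Arrdc4, and for Arrdc4 and Arrdc1. Arrdc2 stood above Mlx, Mlxip and Mlxipl in each SRAKO heart, narrowly so in SRAKO2371, and below Mlx and Mlxipl in each WT heart.

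**Figure D4:**
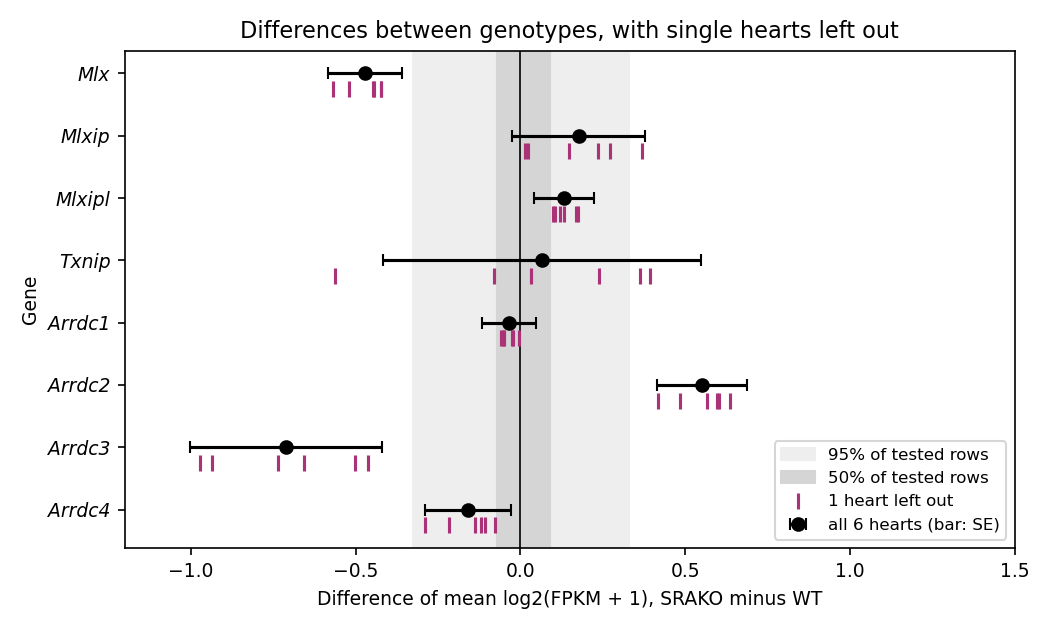
Difference of mean log2(FPKM + 1), SRAKO minus WT, for each gene; black points use all 6 hearts with bars of 1 SE, purple ticks leave out 1 heart each, and grey bands hold 50% and 95% of the 10201 tested rows. Mlx at -0.47, Arrdc2 at 0.55 and Arrdc3 at -0.71 lie outside the wider band (-0.32 to 0.33), and the Txnip ticks fall on both sides of 0.

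Rows with the most similar profiles were sought for each gene in the same way as for Txnip, by Pearson r of log2(FPKM + 1) over 6 hearts, a number at which high r is frequent. Mlx was most like Rbmxl1 (0.982), Acp6 (0.982) and Tars (0.972). Arrdc2 was most like Gypc (0.985), Ston1 (0.982), an endocytic adaptor, and Galnt15 (0.982). Arrdc3 was most like Csrp3 (0.993), which encodes the muscle LIM protein of the Z-disc, Gemin7 (0.987) and Plxnd1 (0.983). Csrp3 itself stood at 184, 216 and 236 FPKM in WT2368, WT2379 and WT2378 and at 200, 168 and 143 in SRAKO2365, SRAKO2371 and SRAKO2372.

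Mlxipl was most like Fabp4 (0.990), a fatty acid binding protein of fat cells and capillary endothelium, Ermp1 (0.979) and Nrbf2 (0.970). Mlxip was most like Dcakd (0.990), Ndufab1 (0.981) and Phf5a (0.980). Arrdc4 was most like Traf3ip2 (0.993), Pitpnc1 (0.989) and Atp6v1a (0.982), and Arrdc1 like Clpx (0.998), Csnk2b (0.974) and Rgp1 (0.965).

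Mlxipl is expressed in fat as well as in heart, and fat cell markers differed between the hearts. The summed FPKM of 12 adipocyte markers was 157 to 192 in WT and 164 to 505 in SRAKO, with 505 in SRAKO2371 and 280 in SRAKO2372. None was at 0 in every heart and 1, Lep, stayed under an FPKM of 1. SRAKO2371 and SRAKO2372 also had the highest Mlxipl values, and the part of fat in them was not tested. In SRAKO2365 the marker sum was 164, within the WT range, and so was its Mlxipl value of 7.07. In WT2368, WT2379 and WT2378 the marker sums were 190, 157 and 192, and Mlxipl stood at 7.18, 6.59 and 6.43. The 10 neutrophil markers, 4 of them under an FPKM of 1 in all hearts, summed to 2.06 to 14.0 in WT and 4.49 to 72.0 in SRAKO, highest in SRAKO2372, where Arrdc2 was highest and Arrdc3 lowest. Their part in those values was not tested. SRAKO2365 had a neutrophil marker sum of 4.49 and an Arrdc2 FPKM of 8.39.

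By the number of tested markers higher in SRAKO and the median log2 difference, adipocyte markers had 11 of 11 higher (median 0.65). Neutrophil markers had 5 of 5 higher (median 1.59). Of these, named after their values were seen, Retnlg, S100a8 and Ngp passed the filter only through WT2379, SRAKO2371 and SRAKO2372. The filter thus favoured rows high in those SRAKO hearts. In SRAKO2365 each tested neutrophil marker was below its WT2379 value, such as S100a9 at 1.59 against 6.54. The other cell type lists follow, and their part in the values of the 8 genes was not tested. Atrial markers had 0 of 8 genes higher in SRAKO (median -0.30). Their sum was 8545 FPKM in WT2379 against 2537 to 3813 in the other 5 hearts. Macrophage markers had 9 of 10 higher (median 0.16), and their sum was above WT in every SRAKO heart, at 238 to 262 against 196 to 236. Endothelial markers had 3 of 10 higher and 7 lower (median -0.03). Their sum was nevertheless above WT in every SRAKO heart, at 292 to 307 against 280 to 287. The largest term of that sum was Fabp4, which stands on the adipocyte list too. Fabp4 was at 82.7 to 108 FPKM in WT and 98.1 to 132 in SRAKO, and without it the endothelial sums of the genotypes overlapped. Smooth muscle and pericyte markers had 7 of 9 higher (0.09), ventricular markers 7 of 10 (0.04), fibroblast markers 2 of 10 (-0.11), and erythroid markers 0 of 5 (-0.28).

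The wider pathway was described with 11 gene lists, 127 distinct genes with a row, of which 99 were tested. None passed limma with Benjamini-Hochberg adjustment over all rows (smallest adjusted p = 0.9995), where 0.0196% of all rows passed. Those were 2 rows, Apc and Pafah1b1, both lower in SRAKO and named after their values were seen. At an unadjusted p under 0.05 in limma there were 3 of 99 (3.03%), against 3.46% of all rows, 1.9% higher and 1.56% lower in SRAKO. The ranges of the genotypes stayed apart in 9 (9.09%), against the 8.05% of all rows given above, and 62 were higher and 37 lower in SRAKO, where 53.5% of all tested rows were higher.

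Other members of the MAX network, which share MLX's dimerization domain, included none at an unadjusted p under 0.05 (0 of 5 tested; limma). Max, the dimer partner of MYC, was at 13.3 ± 1.43 FPKM in WT and 11.0 ± 1.46 in SRAKO (± is the SD over 3 hearts here and for the lists that follow). The repressors Mxi1 and Mnt were at 5.66 ± 0.357 against 6.37 ± 0.253 and at 3.51 ± 0.220 against 3.86 ± 0.213, with ranges that stayed apart. Myc was at 1.72 ± 0.699 and 1.37 ± 0.293. The median log2 difference of these 5 genes was 0.04, and that of all tested rows 0.01. With single hearts left out the list's median ran from 0.0073 without SRAKO2372 to 0.07 without SRAKO2365 or WT2368, and it was 0.02 without WT2379.

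The list of glucose-responsive MLX target genes, whose tested members cover lipogenesis, the pentose phosphate pathway, fructose use, the transporter Slc2a4 and transcription regulators such as Klf10, had 13 of 16 tested members higher and 3 lower, a median of 0.18. None had an unadjusted p under 0.05 in limma. Gpd1, the glycerol 3-phosphate dehydrogenase of triglyceride synthesis, was at 25.3 ± 8.44 FPKM in WT and 62.7 ± 43.2 in SRAKO, and SRAKO2371 had 106. Fatty acid synthase, Fasn, was at 5.23 ± 1.37 and 15.4 ± 14.3, with 31.3 in SRAKO2371 and 3.83 in SRAKO2365. The pentose phosphate enzymes Tkt (in a row with Mir3076) and G6pdx were at 3.59 ± 0.604 against 6.88 ± 4.29 and at 3.82 ± 0.658 against 4.99 ± 1.29. The adipocyte markers given above were highest in the same heart, and without SRAKO2371 the median of this list was 0.09.

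Genes of the thioredoxin system, in which TXNIP binds thioredoxin itself, split. Cytosolic thioredoxin, Txn1, was at 15.4 ± 1.39 FPKM in WT and 16.6 ± 0.600 in SRAKO, far below Txnip. Txnrd3 was at 3.42 ± 0.112 and 4.32 ± 0.387, with a log2 difference of 0.27 (unadjusted p = 0.0197, adjusted p = 0.9995, limma). Txnrd1, the cytosolic reductase, was at 5.81 ± 0.870 and 4.61 ± 0.269, a difference of -0.27 (unadjusted p = 0.0476, adjusted p = 0.9995, limma). Prdx1, a peroxiredoxin reduced by thioredoxin, was at 37.2 ± 7.50 and 41.7 ± 5.14. Of the 16 genes tested 10 were higher and 6 lower, with a median of 0.08, which was -0.01 without WT2368.

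Glucocorticoid and FOXO induced genes, to which Txnip is often counted, had 13 of 18 tested members higher and 5 lower, with a median of 0.19. Fkbp5, which restrains the glucocorticoid receptor, was at 9.58 ± 1.15 FPKM in WT and 13.5 ± 3.29 in SRAKO (unadjusted p = 0.0333, adjusted p = 0.9995, limma). The metallothionein Mt1 was at 159 ± 11.2 and 186 ± 7.47, the cell cycle inhibitor Cdkn1a at 23.1 ± 5.96 and 38.7 ± 17.8, and Foxo1 at 2.52 ± 0.465 and 3.03 ± 0.407. This list was lowest in WT2368, by a median of -0.34 from the mean of all hearts, and without that heart its median difference was -0.02. WT2368 was the lowest heart for most other pathway lists too, such as glucose uptake (-0.30), MLX targets (-0.28) and thioredoxin (-0.20). Ddit4 and Sgk1, named after their values were seen, were at 19.5 and 9.06 in WT2368, against 28.9 to 49.0 and 18.1 to 27.6 in the other 5 hearts.

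**Figure D5:**
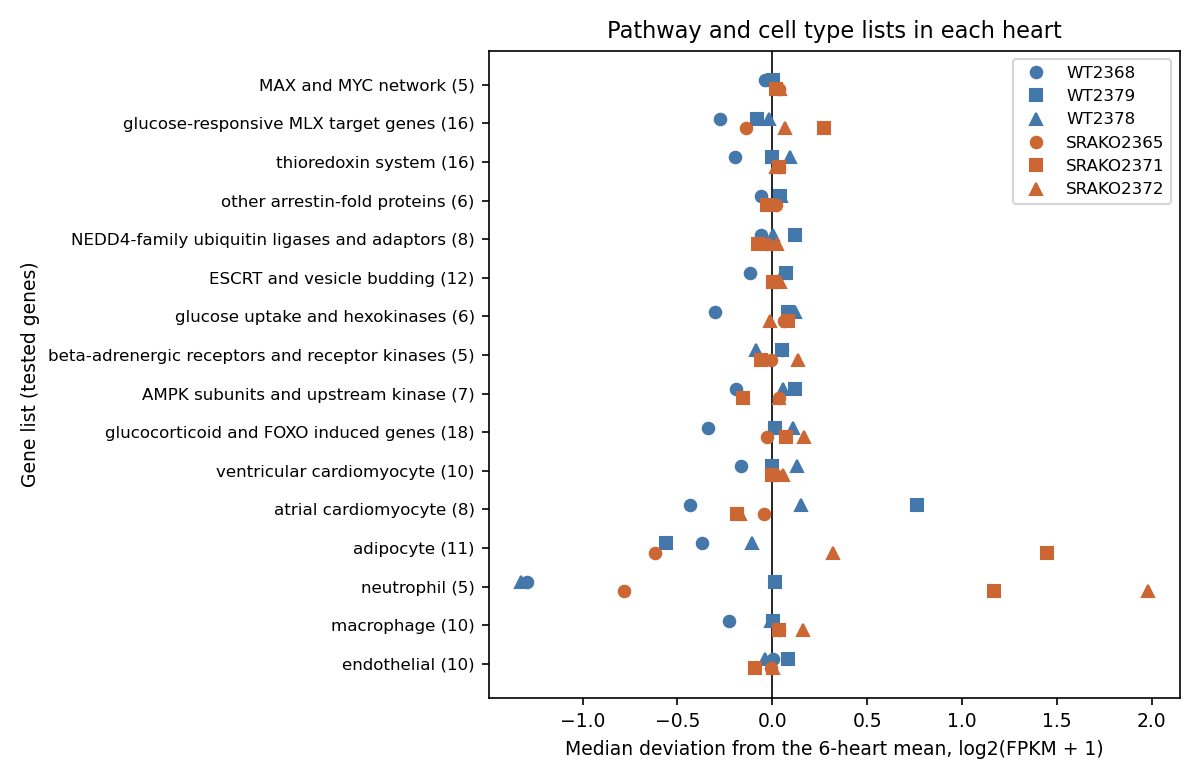
Median deviation of each list's tested genes from their 6-heart mean on the log2(FPKM + 1) scale, 1 symbol per heart, WT in blue and SRAKO in orange. WT2368 is the lowest heart for most pathway lists, among them glucocorticoid and FOXO (-0.34), glucose uptake (-0.30), MLX target (-0.28) and thioredoxin (-0.20). It is also the lowest for ventricular, atrial and macrophage markers. It is not the lowest for adipocyte, neutrophil and endothelial markers or the NEDD4-family and beta-adrenergic lists. SRAKO2371 is the highest for adipocyte markers (1.45) and the MLX target list (0.27).

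Glucose transporters and hexokinases, the route that TXNIP and ARRDC4 restrain, had 4 of 6 tested genes higher and 2 lower and none at an unadjusted p under 0.05 in limma. The intracellular transporter Slc2a8 was at 2.83 ± 0.596 FPKM in WT and 3.54 ± 0.115 in SRAKO, Hk2 at 16.7 ± 3.18 and 13.9 ± 0.994, and Hk1 at 22.7 ± 3.70 and 25.8 ± 1.35. AMPK, the kinase that marks TXNIP for degradation, had 2 of 7 genes higher and 5 lower. Its subunit Prkab2 was at 3.84 ± 0.601 and 2.74 ± 0.885, Prkag2 at 5.69 ± 1.69 and 4.89 ± 0.500, Prkab1 at 8.98 ± 1.85 and 9.55 ± 0.610, and the upstream kinase Stk11 at 17.1 ± 1.44 and 18.6 ± 0.431. Of the inflammasome genes, to which TXNIP is linked through NLRP3, 1 of 6 was tested, Gsdmd at 3.83 ± 0.354 and 4.35 ± 0.340.

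The machinery that alpha-arrestins recruit had list medians near 0 with all hearts. NEDD4-family ligases had 4 of 8 tested genes higher and 4 lower, with a median of 0.00, which was -0.11 without WT2368 and -0.07 without SRAKO2372. Nedd4 itself, named after its values were seen, was at 26.0 FPKM in SRAKO2372 against 6.15 to 10.5 in the other hearts. Smurf2 (in a row with Gm27322) was at 4.82 ± 0.384 FPKM in WT and 4.04 ± 0.304 in SRAKO, with ranges that stayed apart, Itch at 1.56 ± 0.252 and 1.41 ± 0.193, and Smurf1 at 5.52 ± 0.561 and 5.75 ± 0.381. ESCRT genes, which ARRDC1 uses for budding, had 7 of 12 higher and 5 lower with a median of 0.02 (-0.05 without WT2368), among them Hgs at 10.3 ± 1.55 and 11.1 ± 0.275 and Pdcd6ip at 10.0 ± 1.18 and 9.32 ± 0.642. Neither list had a gene at an unadjusted p under 0.05 in limma.

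Receptors and kinases of the beta-adrenergic route, on which ARRDC3 acts, had 3 of 5 tested genes higher and 2 lower, with a median of 0.00, which was -0.11 without WT2378. Grk2 was at 9.82 ± 1.47 FPKM in WT and 11.3 ± 2.67 in SRAKO, Grk3 at 2.89 ± 0.212 and 2.57 ± 0.441, and Grk5 at 10.2 ± 2.33 and 9.88 ± 1.17. Adrb1, named for its role after its values were seen, was at 2.35 ± 0.586 and 2.31 ± 0.130. The arrestin-fold proteins outside the alpha class had 3 of 6 tested genes higher and 3 lower, with Vps26a and Vps26b of the retromer at 14.2 ± 1.13 against 14.9 ± 0.534 and at 4.47 ± 0.341 against 4.22 ± 0.353.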

How the data were processed

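RNA of 6 mouse hearts was sequenced after selection on oligo(dT) beads, per the labels' protocols. The authors deposited 1 table of FPKM values per gene and heart, per the file headers. Cutadapt 1.9, HISAT2 2.0.4, StringTie 1.3.4d and edgeR are named, per the submitters' processing notes, with build hg38 although the identifiers are those of mouse. Strand and read depth are not given in the sources used here, so no count test was run and no depth interval is given. Groups came from the sample titles, and nothing says outright that hearts came from separate animals. The limma p-values set a genotype difference against the spread between these samples within each genotype.

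The deposited FPKM values were analysed after a log2(FPKM + 1) transformation by limma 3.58.1 under R 4.3.3 (variance trend, genotype alone, two-sided, Benjamini-Hochberg over 10201 rows with FPKM of at least 1 in at least 3 hearts, threshold 0.05). The code was tested on simulated data. The 8 genes, the 11 pathway and 10 cell type lists and the alternatives were chosen with earlier results of these data known. Named genes are the 8 genes, Sra1, up to 4 tested genes per pathway list with the smallest p, and the 3 rows most like each gene; exceptions are said in place, and 1 gene under this rule is not reported here. Row positions come from GENCODE M21 on GRCm38 through the transcript identifiers, and promoter sequences from RefSeq on GRCm38.p6. The build the authors aligned to is open. Alternatives were the pseudocount, filters, scalings, array weights and hearts left out.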

Additional observations from a re-analysis of the deposited data

How the results depend on the processing

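The log2 differences of Mlx, Mlxip, Mlxipl, Arrdc1, Arrdc2, Arrdc3 and Arrdc4 kept their sign in the 13 or 14 alternatives run for each. Each moved by less than its SD within genotypes. The filters and the summing of rows cannot alter these differences. For Mlx and Arrdc2, chosen for ranges that stayed apart, leaving out hearts cannot change the sign, so their kept signs are no separate support. Mlx ran from -0.57 to -0.42, Arrdc2 from 0.42 to 0.64 and Arrdc3 from -0.997 to -0.46. Txnip changed sign in 4 of 14: it was -0.42 with array weights, -0.56 without WT2368, -0.08 without SRAKO2371 and -0.71 without both, against 0.06. Sra1 stayed lower throughout, from -1.30 to -0.86, and never passed limma's threshold.

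The number of rows called by limma, 2 with all hearts, was 1 with a pseudocount of 0.1, 1 with a filter at an FPKM of 5 and 0 without a filter on low values (919 at an unadjusted p under 0.05). It ran from 0 to 7 with 1 heart left out: 0 without WT2368 (683 unadjusted) or SRAKO2365 (409), 1 without SRAKO2371 or SRAKO2372, 6 without WT2379 and 7 without WT2378. It was 0 without WT2368 and SRAKO2371 together (672). The cause was not tested. Of 142 list medians under alternatives, 19 changed sign. Summing rows of a symbol changed nothing because each of the 8 genes had 1 row. A filter at an FPKM of 5 left no value for Mlxip, Arrdc1, Arrdc3, Arrdc4 and Sra1. No paired analysis was possible because the titles give each heart a number of its own.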

Other observations

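The beta-arrestins, relatives of the alpha-arrestins that bind phosphorylated receptors, behaved unlike each other across the hearts; both genes were singled out after their values were seen. Arrb2 was at 5.18, 5.26 and 5.24 FPKM in WT2368, WT2379 and WT2378 and at 5.28, 5.25 and 5.17 in SRAKO2365, SRAKO2371 and SRAKO2372. Its SD within genotypes of log2(FPKM + 1) was 0.01, at the 0.0147th percentile of tested rows. Arrb1 was at 2.56, 3.65 and 0.596 in the same WT hearts and at 3.12, 3.19 and 1.01 in the same SRAKO hearts, with an SD of 0.71 at the 98.7th percentile. The low hearts were 1 of each genotype, WT2378 and SRAKO2372. They were not the hearts in which Txnip was low.

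Fat-linked genes outside the naming rule varied widely between hearts. Scd1, the stearoyl-CoA desaturase, was at 223 FPKM in SRAKO2371 against 10.3 to 32.7 in the other 5 hearts. Acly, which makes acetyl-CoA for fat synthesis, was at 17.3 in SRAKO2371 and 9.83 in SRAKO2372, against 6.36 to 8.01 elsewhere. Ucp1, the uncoupling protein of brown fat, was at 98.9 in SRAKO2371, 51.1 in SRAKO2372 and 18.0 in WT2378, against 0.834 to 2.82 in the remaining hearts. Scd1 and Acly are also on the list of glucose-responsive MLX target genes, among its 13 tested members higher in SRAKO. Ucp1 is itself 1 of the adipocyte markers, and the part of fat in the Scd1 and Acly values was not tested.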
